A study of Mus musculus with 9 samples.

Results

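The genes described here are 31 enzymes and regulators of cholesterol and fatty acid synthesis. They were chosen by name from the pathways, with earlier results of these data known. All 31 were found by gene name among the 13499 genes of the authors' expression table. By role they fall into 7 genes of the mevalonate and isoprenoid steps, 12 of the squalene and sterol steps, 6 that regulate the SREBP factors or carry sterols inside the cell, and 6 of fatty acid synthesis. RNA was sequenced in 9 libraries of C57BL/6 mouse embryonic stem (ES) cells, cultured cells that can form all tissues of the embryo, which were grown on gelatine in LIF medium and sorted on a cytometer. The populations are named High, Medium and Low by their Myc level, with 3 libraries each, described by the submitters as biological replicas. The sort used a GFP-Myc fusion or EYFP, and the labels do not tell which reporter a given library comes from; all 3 populations share the strain, the medium and the sort. The comparisons address how RNA levels differ with the Myc level of the cell.

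Cholesterol is built from acetyl-CoA through mevalonate, the isoprenoid farnesyl diphosphate, squalene and a series of sterols, and fatty acids are built from the same acetyl-CoA by carboxylation, chain synthesis, elongation and desaturation. The SREBP transcription factors, encoded by Srebf1 and Srebf2, are held in the endoplasmic reticulum by Scap and the Insig proteins when sterols are plentiful, and switch on genes of both routes when sterols run low. Myc, a transcription factor of cell growth, binds the E-box, and dividing cells such as ES cells use sterols and fatty acids to build membranes.

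Values are the authors' normalized read counts, a signal near the scale of CPM, given as mean ± SD with n = 3 unless single libraries are listed in the order of replicates 1 to 3. Between 11114936 and 16755566 reads per library were recovered from this scale, and each member was covered by 114 to 11815 reads in each library. Myc RNA was 106 ± 5.71 in High, 67.1 ± 2.54 in Medium and 26.0 ± 1.75 in Low, which checks the labels. All 8 ES cell markers were present, with summed levels of 5603 to 6377 in High, 5316 to 5991 in Medium and 4562 to 6155 in Low. By gene, their means moved in different directions. Means in High and Low were 1515 and 1134 for Pou5f1, 525 and 363 for Esrrb and 818 and 502 for Tdgf1. For Zfp42 they were 82.7 and 69.5, and for Utf1 564 and 516. Those with a higher mean in Low were Sox2 (452 and 475), Nanog (247 and 288) and Dppa5a (1883 and 2045). Trophoblast markers moved with the populations: the 5 of 7 in the table summed to 122 to 128 in High, 203 to 226 in Medium and 453 to 548 in Low, and the defining markers Cdx2 and Elf5 were not among the table's gene names. Sums over 6 of 7 fibroblast or feeder markers were 28.4 to 41.4 in High, 35.5 to 59.8 in Medium and 24.1 to 39.8 in Low. Of 7 primitive endoderm markers 2 were in the table, and the other 5, which include its defining transcription factors, were not among its gene names. The 2 moved with the populations in opposite directions: Sparc averaged 428 ± 7.95 in High, 343 ± 11.9 in Medium and 221 ± 8.62 in Low, and Dab2 2.22 ± 0.518 in High, 3.69 ± 0.412 in Medium and 6.02 ± 0.347 in Low, with a summed level of 424 to 439 in High, 335 to 359 in Medium and 220.0 to 237 in Low. The 4 of 5 neural markers in the table summed to 108 to 112 in High, 112 to 120 in Medium and 108 to 117 in Low. Among them Sox1 averaged 23.9 ± 0.61 in High, 16.5 ± 0.698 in Medium and 6.86 ± 0.542 in Low, and Tubb3 70.3 ± 1.38 in High, 77.5 ± 4.84 in Medium and 87.0 ± 10.2 in Low. The part of other cells in the results was not tested. Values are relative to the other RNA of a library, so fewer cells with a transcript and less of it per cell cannot be told apart.

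Promoter windows of 300 bases (250 before to 50 after the annotated start, RefSeq, GRCm38.p6) were at hand for 25 of the 31 genes, in 33 windows. They were searched on both strands for 4 motifs that do not contain each other. These are the sterol element, spelled TCACNCCAC, the NF-Y box, spelled CCAAT, the E-box, a palindrome spelled CACGTG, and the GC box, spelled GGGCGG. The sterol element, a binding sequence of the SREBPs, was found in 1 of 25 genes (4%), Hmgcs1, against 1.44% of the 27025 genes with a promoter in the reference table. The NF-Y box, bound by the factor NF-Y, which is known to act together with SREBPs, was found in 21 of 25 genes (84%), against 41.1% of all genes. The E-box was found in 5 of 25 (20%), namely Dhcr7, Hsd17b7, Insig1, Sc5d and Scap, against 8.09% of all genes and 11.9% of those in the expression table. The GC box was found in 21 of 25 (84%), against 38.2% of all genes and 69.8% of those in the expression table. Of the 4 fatty acid synthesis genes with a window (Acaca, Acly, Elovl6 and Fasn), 2 held an NF-Y box, 1 a GC box and none an E-box or a sterol element. A match is a description of these letters and not evidence of binding, and its absence covers only this window and this spelling of the motif. For 4 members whose results or motifs are taken up again, a stretch of 60 bases from before the start follows, 5′ to 3′ on the gene's own strand. Capitals mark the 1 motif match named for each gene, and any other match in the stretch is in lower case. They are Hmgcs1, the single member with the sterol element (chr13:119690189-119690248, plus strand), Mvd, the single member that passed as lower in High than in Low (limma, adjusted p under 0.05), with an NF-Y box (chr8:122443423-122443482, minus strand), Fasn, with an NF-Y box on the other strand that overlaps a further copy (chr11:120824574-120824633, minus strand), and Insig1, with the E-box (chr5:28071284-28071343, plus strand).
Hmgcs1: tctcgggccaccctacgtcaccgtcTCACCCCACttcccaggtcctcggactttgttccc
Mvd: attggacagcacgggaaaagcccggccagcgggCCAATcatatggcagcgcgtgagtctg
Fasn: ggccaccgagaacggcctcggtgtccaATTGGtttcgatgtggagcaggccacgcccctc
Insig1: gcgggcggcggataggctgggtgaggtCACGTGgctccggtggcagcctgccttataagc

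The pathway was expressed in all 9 libraries, and 27 of the 31 members stood above the median level of all genes (23.5), with a median member level of 118. Levels were divided by the length of the longest annotated transcript for a rough comparison between genes. Which transcript the cells expressed was not tested. The level per kb was highest for Acly (123), which makes cytosolic acetyl-CoA from citrate. Next came Hmgcs1, the HMG-CoA synthase, and Fdps, which makes farnesyl diphosphate (both 101). Scd2, a stearoyl-CoA desaturase, followed at 70.5 per kb. The lowest levels per kb were those of Hsd17b7 (4.64), a ketosteroid reductase of the sterol steps, Insig2 (4.94) and Tm7sf2 (5.13). Without that division Insig2 (13.3), Tm7sf2 (15.8) and Ebp (20.5) lay below Hsd17b7 (21.4). Spread between replicates was small for most members: the median coefficient of variation over the 31 genes was 5.84% in High, 7.48% in Medium and 10.9% in Low.

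Between High and Low, the genes that passed as higher in High were all fatty acid synthesis genes, and most of the sterol genes did not pass the test. Of the 31 members, 3 were higher in High (Acaca, Acly and Scd2), 1 was lower (Mvd) and 27 did not pass (limma, adjusted p under 0.05). Over all genes tested, 28.4% passed, 13.8% as higher and 14.6% as lower, so the share of the whole pathway that passed was below that background. A single member passed without Low replicate 3, and 10 members passed without Low replicate 1. The 6 fatty acid synthesis genes had a median log2 fold change of 0.54, with all 6 positive and 3 passed, whereas the median over all genes was near 0 (-0.00025). The medians of the other groups were -0.09 for the mevalonate and isoprenoid steps, -0.06 for the squalene and sterol steps and -0.06 for the SREBP regulators. Summed over its 6 genes, the fatty acid synthesis signal was 2223 ± 232 in High, 2153 ± 213 in Medium and 1550 ± 402 in Low (n = 3 each). The summed signal of the mevalonate genes was 1072 ± 9.93 in High, 1098 ± 77.8 in Medium and 1173 ± 57.1 in Low, and that of the squalene and sterol genes 1193 ± 44.2 in High, 1168 ± 66.2 in Medium and 1225 ± 28.2 in Low.

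**Figure D1:**
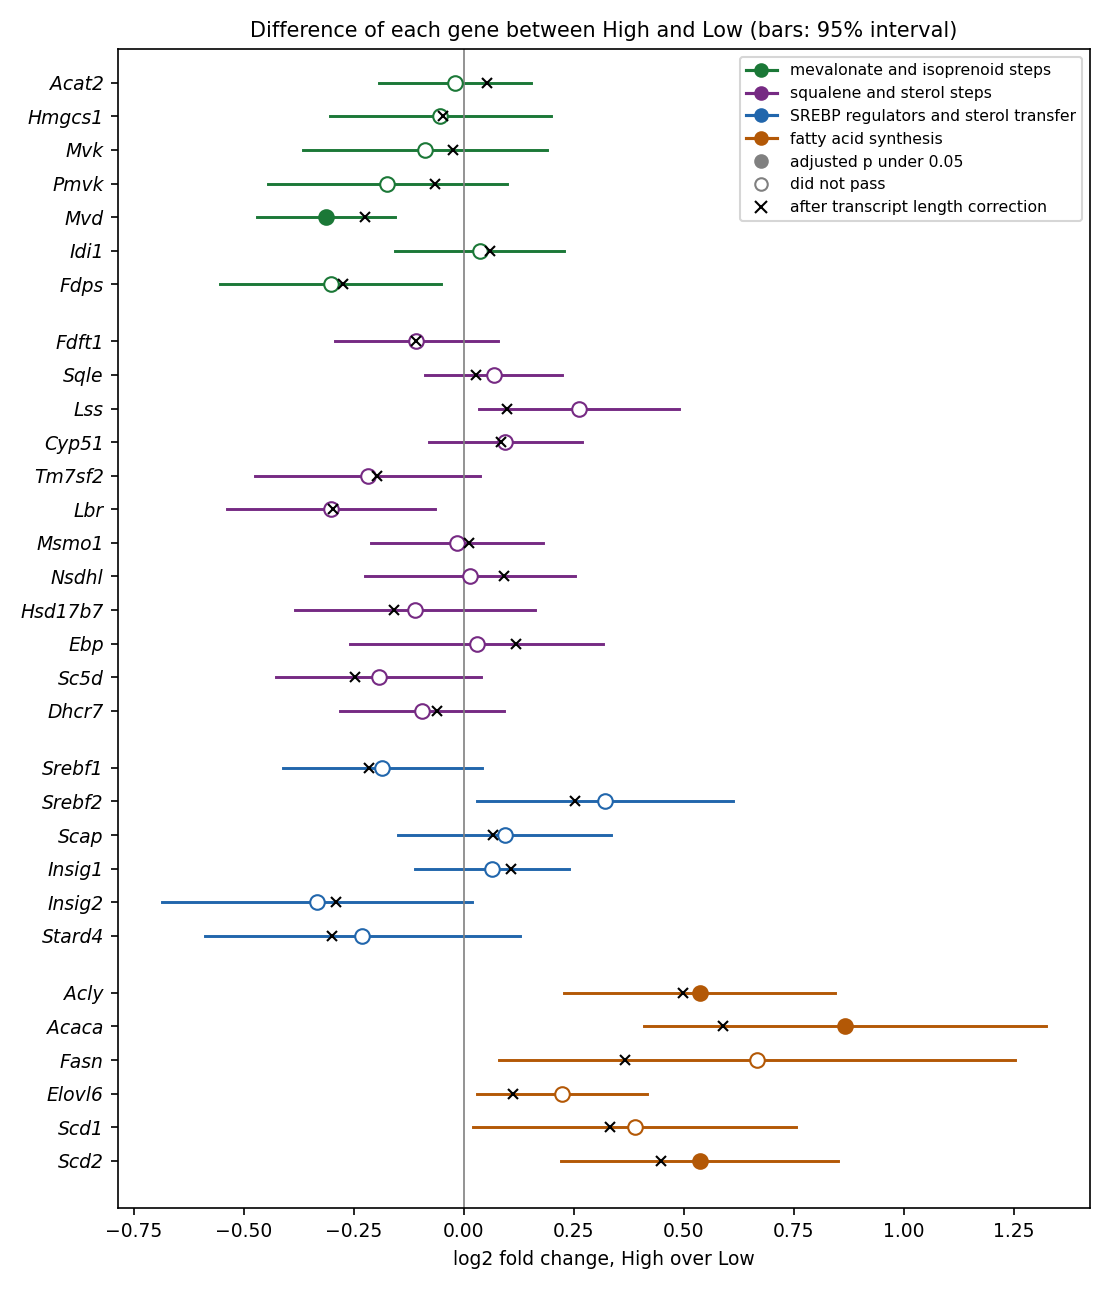
Log2 fold change of High over Low for each of the 31 genes (circles; bars, 95% interval of the limma fit), by role; filled circles passed at adjusted p under 0.05 and crosses give the value after a transcript length correction. All 6 fatty acid synthesis genes lie right of 0, from 0.22 for Elovl6 to 0.87 for Acaca, while the other genes lie between -0.33 and 0.32 on both sides of it.

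Acaca encodes acetyl-CoA carboxylase, which commits acetyl-CoA to fatty acid synthesis (ENSMUSG00000020532, chr11:84129672-84401651 on GRCm38, plus strand). Its levels were 197, 162 and 161 in High, 184, 136 and 174 in Medium and 133, 73.5 and 85.3 in Low. Every High and Medium library exceeded every Low library, and High exceeded Low 1.78-fold. The log2 fold change of High over Low was 0.87 (SE 0.20, limma adjusted p = 0.0119), and the call was lost without Low replicate 3 (adjusted p = 0.0519).

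Acly, the ATP citrate lyase upstream of both routes (ENSMUSG00000020917, chr11:100476353-100528000, minus strand), had levels of 655, 599 and 576 in High, 662, 553 and 594 in Medium and 513, 346 and 417 in Low. The Low libraries again lay below all others, with a fold of 1.43 for High over Low and a log2 fold change of 0.54 (SE 0.14, limma adjusted p = 0.0174). The call for Acly was lost without High replicate 1 (adjusted p = 0.065), High replicate 2 (0.0509) or Low replicate 3 (0.0595) and with quantile normalization (0.0589).

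Fasn, the fatty acid synthase that builds palmitate (ENSMUSG00000025153, chr11:120805846-120824547, minus strand), reached 780.1, 623 and 596 in High, 680.4, 563 and 672 in Medium and 673, 282 and 381 in Low. Low replicate 1 lay among the High and Medium libraries and the other Low libraries far below them, so that the groups overlapped and the coefficient of variation in Low was 45.6%. The difference between High and Low did not pass (log2 fold change 0.67, 95% interval 0.08 to 1.25, limma adjusted p = 0.0857). It passed without Low replicate 1, at adjusted p = 0.000679.

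Scd2 and Scd1 are neighbouring paralogs that encode desaturases placing the double bond of oleate, and reads that both share could have been split between them. Scd2 (ENSMUSG00000025203, chr19:44293674-44306864, plus strand) had 494, 417 and 399 in High, 467, 365 and 410.4 in Medium and 356, 255 and 296 in Low. For Scd2 no Low library reached the lowest High or Medium library, and the log2 fold change of High over Low was 0.54 (SE 0.14, limma adjusted p = 0.0194). That call was lost without High replicate 1 (adjusted p = 0.0752), Low replicate 2 (0.0531) or Low replicate 3 (0.0655). Scd1 had 112, 93.4 and 86.2 in High, 109, 78.1 and 89.5 in Medium and 88.3, 60.3 and 74.6 in Low. Low replicate 1 of Scd1 lay above the lowest High library, and its log2 fold change of 0.39 did not pass (limma adjusted p = 0.105; without Low replicate 1, adjusted p = 0.0207).

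Elovl6, the elongase that extends palmitate to stearate, had the smallest log2 fold change of the 6. Its levels were 249, 239 and 230.4 in High, 243, 230.0 and 249.7 in Medium and 229.7, 193 and 195 in Low. The High and Medium libraries all exceeded the Low ones, Low replicate 1 by a narrow margin, and the log2 fold change of 0.22 did not pass (limma adjusted p = 0.0821; without Low replicate 1, adjusted p = 0.00707). In all 6 genes Low replicate 1 was the highest Low library and High replicate 1 the highest High library.

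**Figure D2:**
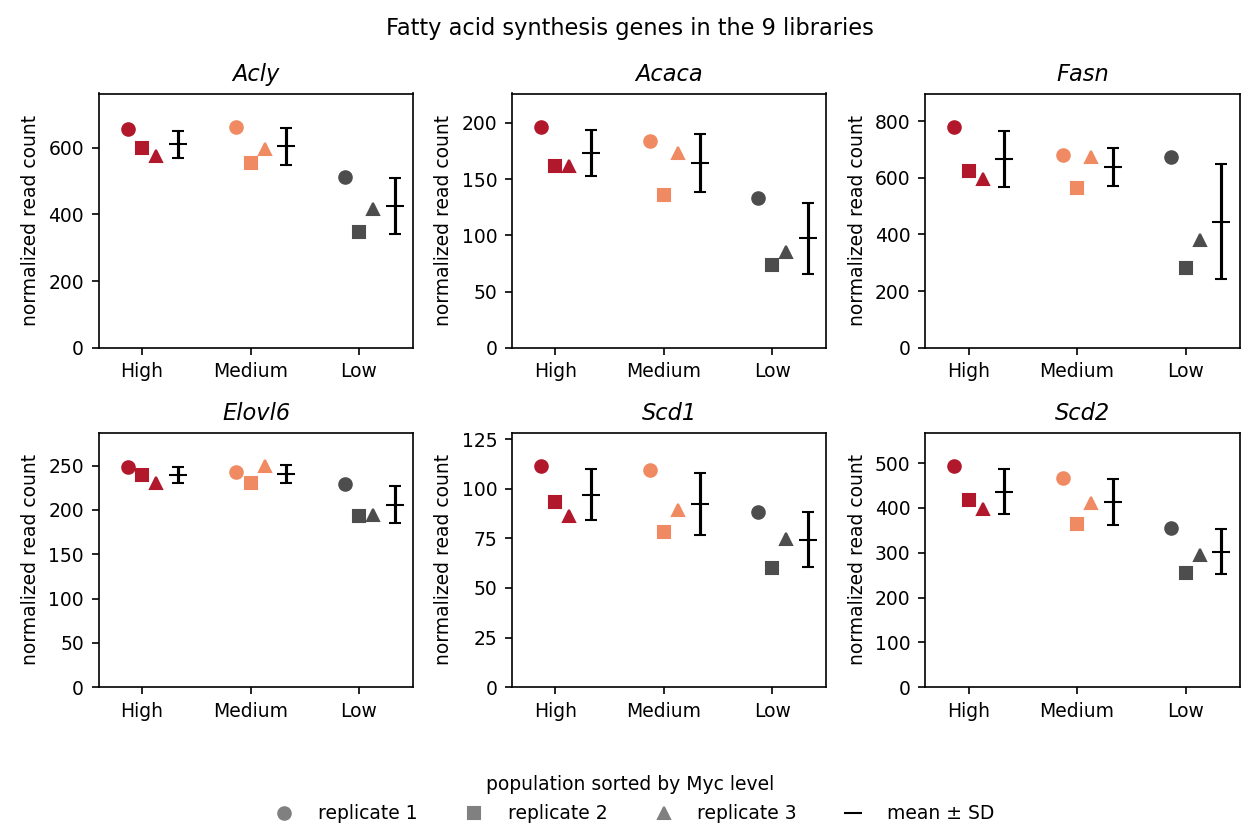
Normalized read count (vertical axes, from 0) of the 6 fatty acid synthesis genes in the High, Medium and Low libraries; symbols mark the replicate and bars the mean ± SD of 3 libraries. High and Medium overlap in every panel, and Low replicates 2 and 3 lie below them, with Acaca at 73.5 and 85.3 in these 2 Low libraries.

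Around their population means, same-numbered libraries of High and Low correlated at 0.53, 0.26 and 0.18. High 3 with Low 2 (0.31) and High 2 with Low 3 (0.12) also correlated, so the pairing is uncertain. With the replicate number as a block, all 6 fatty acid synthesis genes passed as higher in High. The limma adjusted p was 0.0163 for Fasn, 0.0371 for Elovl6 and 0.00725 for Scd1. Over the 31 members the blocked fit called 8 higher and 3 lower, beside 38.8% of all genes, 20.2% as higher and 18.6% as lower. In that fit Lss (0.0241) and Srebf2 (0.0337) also passed as higher, and Fdps (0.0342) and Lbr (0.0094) as lower.

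The fatty acid synthesis genes have long transcripts, with a longest annotated transcript of 10050 nt for Fasn, 9513 nt for Acaca, 5951 nt for Elovl6, 5455 nt for Scd2, 4832 nt for Scd1 and 4426 nt for Acly, against a median of 3287 nt over all genes. The libraries differed in how long transcripts stood against short ones. The median log2 deviation of genes of at least 4729 nt minus that of genes of at most 2100 nt was 0.25, -0.06 and -0.07 in High, 0.30, -0.05 and 0.25 in Medium and 0.28, -0.59 and -0.27 in Low. Low replicates 2 and 3, in which the fatty acid synthesis genes were lowest, were thus also the libraries with the least signal from long transcripts. The median log2 deviation of the 6 genes from their own means was 0.37, 0.15 and 0.08 in High, 0.31, -0.01 and 0.14 in Medium and -0.02, -0.60 and -0.36 in Low. After each library was corrected for a smooth trend on transcript length, it was 0.26, 0.17 and 0.10 in High, 0.19, 0.00 and 0.04 in Medium and -0.12, -0.38 and -0.24 in Low, with all 3 High libraries above all 3 Low ones.

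With that correction, 5 of the 6 genes passed as higher in High than in Low, with a median log2 fold change of 0.41, beside 38.2% of all genes that passed in either direction and 19.5% as higher. The corrected log2 fold change was 0.59 for Acaca (limma adjusted p = 0.000166), 0.50 for Acly (0.0022) and 0.45 for Scd2 (0.00124). Fasn came to 0.37 (0.0325) and Scd1 to 0.33 (0.042). Elovl6 came to 0.11 and did not pass (0.151). The corrected difference of Fasn was smaller than the uncorrected one by more than 1.5 times, as was that of Elovl6. With the length correction and without Low replicate 2, 3 members passed as higher in High.

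**Figure D3:**
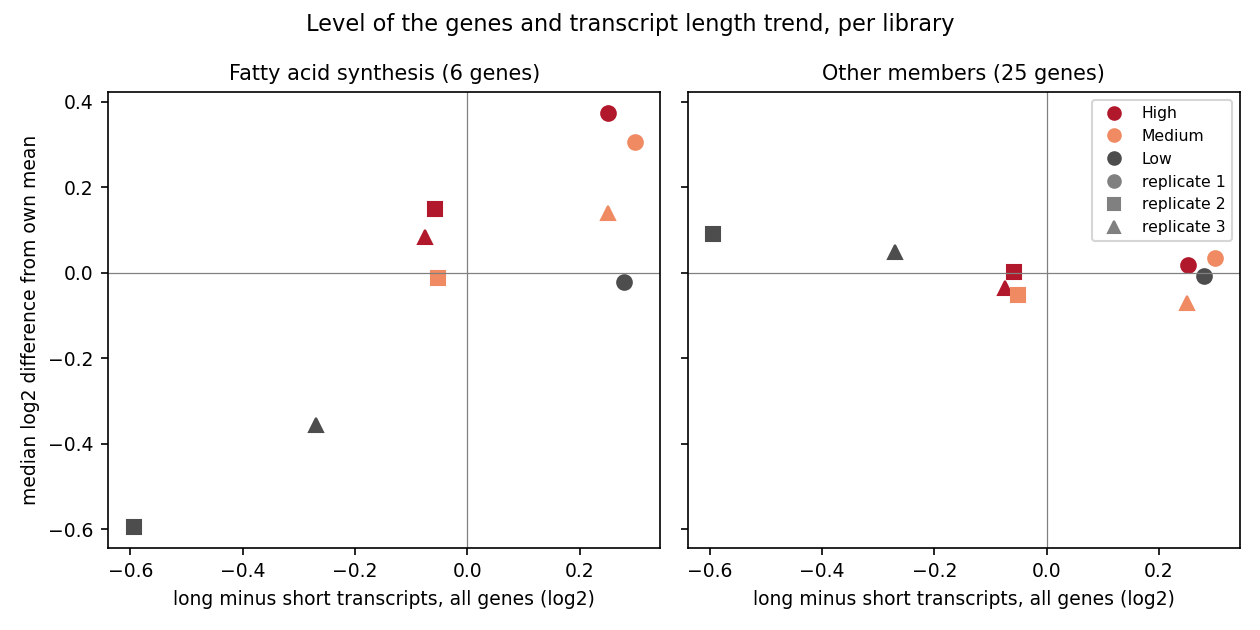
Median log2 difference of a gene group from its own mean (vertical axis) against the long-minus-short transcript difference of the library over all genes (horizontal axis), for the 6 fatty acid synthesis genes and for the 25 other members; each point is 1 library. Low replicate 2 lies at the lower left for fatty acid synthesis (-0.60 at -0.59). The median of the 25 other members stays within 0.10 of 0 in every library, but it pools groups that differ. In Low replicate 2 the median was 0.21 for the mevalonate and isoprenoid steps and 0.14 for the squalene and sterol steps. For the SREBP regulators it was -0.06 in that library.

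Among the mevalonate and isoprenoid genes, Mvd was lower in High and in Medium than in Low, and none was higher. Mvd encodes the mevalonate diphosphate decarboxylase, the step that yields isopentenyl diphosphate (ENSMUSG00000006517, chr8:122433601-122443422, minus strand). Its levels were 62.7, 68.0 and 66.1 in High, 64.5, 64.4 and 65.5 in Medium and 78.6, 83.3 and 83.4 in Low. Every Low library exceeded every other library by more than the spread within any population, and High was at 0.803 of Low. The log2 fold change of High over Low was -0.31 (SE 0.07, limma adjusted p = 0.00936), and it passed in all 25 alternatives run for it. The longest Mvd transcript is 1833 nt, and genes of at most 2100 nt had raised medians in Low replicates 2 and 3 (0.28 and 0.12). After the length correction its log2 levels were 6.08, 6.09 and 6.03 in High and 6.40, 6.19 and 6.29 in Low.

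Fdps had 270.0, 280.2 and 275 in High, 283, 289 and 264 in Medium and 282, 390.1 and 356 in Low. All Low libraries exceeded all High ones, but Low replicate 1 lay among the Medium libraries and the difference did not pass (log2 fold change -0.30, limma adjusted p = 0.0714). It passed after the length correction (0.0373), with quantile normalization (0.0147), with each library at the same total (0.0274), with DESeq2 (0.0497) and without Low replicate 1 (0.00136). Fdps shares 26.7% of its exon bases with the annotated gene Gm43738 on the same strand, so part of its signal is uncertain.

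The other 5 genes of these steps varied little. Hmgcs1, whose promoter is printed above, averaged 339 ± 19.8 in High, 363 ± 53.0 in Medium and 352 ± 30.4 in Low, a log2 fold change of -0.05 for High over Low (95% interval -0.30 to 0.20). The thiolase Acat2, at the start of the route, averaged 138 ± 6.96 in High, 138 ± 6.27 in Medium and 139.8 ± 7.67 in Low. Idi1, the isopentenyl diphosphate isomerase, averaged 185 ± 3.61 in High, 190.0 ± 17.3 in Medium and 180.3 ± 11.6 in Low. For each of these 3 genes the population means differed by less than the largest SD within a population. The kinases Mvk and Pmvk, which phosphorylate mevalonate in turn, were at lower levels. Mvk averaged 32.7 ± 0.639 in High, 29.7 ± 3.92 in Medium and 35.1 ± 4.68 in Low, and Pmvk 36.9 ± 4.36 in High, 34.3 ± 2.14 in Medium and 41.8 ± 5.65 in Low. Their ranges overlapped between High and Low, and neither passed (limma adjusted p = 0.637 and 0.315).

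None of the 12 squalene and sterol genes passed between High and Low in limma, and 2 had an unadjusted p under 0.05, Lss and Lbr. Lss, the lanosterol synthase that closes the sterol rings, had 138, 127 and 121 in High, 120.1, 107 and 124 in Medium and 121, 96.4 and 106 in Low. Its High libraries lay just above its Low ones, with a log2 fold change of 0.26 (limma adjusted p = 0.0805; without Low replicate 1, adjusted p = 0.0119). The longest Lss transcript is 6992 nt, and after the length correction the log2 fold change was 0.10 (adjusted p = 0.216).

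Lbr encodes the lamin B receptor, a sterol C14 reductase of the nuclear membrane, and had 208, 174 and 177 in High, 235, 187 and 196 in Medium and 235, 220.5 and 231 in Low. All High libraries lay below all Low ones, and the difference narrowly missed the threshold (log2 fold change -0.30, limma adjusted p = 0.0578). It passed after the length correction (0.0258), with quantile normalization (0.0109), with each library at the same total (0.0435), and without High replicate 1 (0.0396) or Medium replicate 1 (0.036). Tm7sf2, the other C14 reductase, was at a low level of 13.9, 15.9 and 15.6 in High, 13.8, 16.1 and 13.5 in Medium and 16.2, 19.9 and 17.4 in Low. Its High libraries also lay below its Low ones, without passing (limma adjusted p = 0.183), and it shares 12.1% of its exon bases with Vps51.

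**Figure D4:**
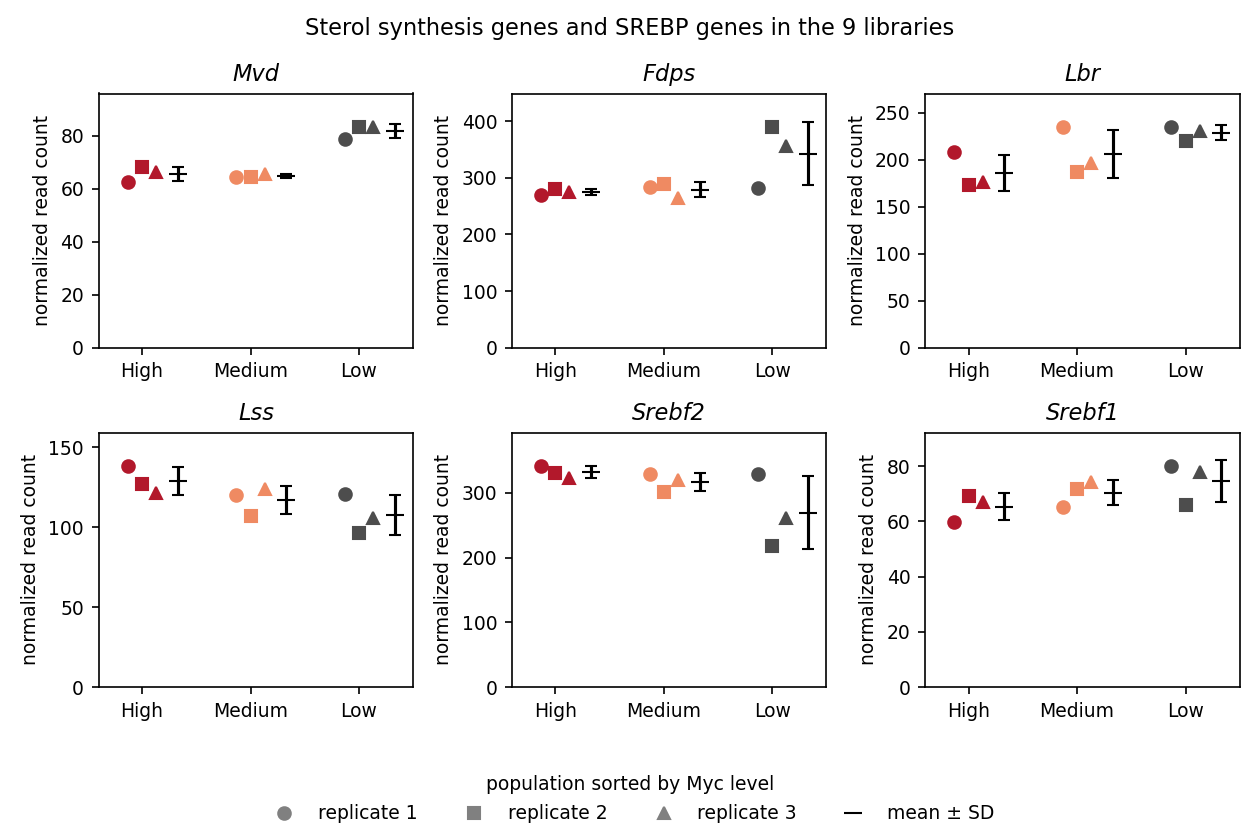
Normalized read count (vertical axes, from 0) of the sterol route genes with the lowest log2 fold changes of High over Low (Mvd, Fdps and Lbr), of Lss, and of the SREBP genes Srebf2 and Srebf1, by population; symbols mark the replicate and bars the mean ± SD of 3 libraries. Mvd in Low sits between 78.6 and 83.4, above all other libraries, and Srebf2 in Low spreads from 217 to 329.

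Cyp51, the lanosterol demethylase, was the other sterol gene whose High libraries all exceeded its Low libraries, at 113 to 121 in High, 106 to 120.1 in Medium and 104 to 112 in Low, a difference that did not pass (log2 fold change 0.09, limma adjusted p = 0.396). Squalene synthase (Fdft1) averaged 179.6 ± 2.66 in High, 175 ± 7.29 in Medium and 194 ± 17.6 in Low. Squalene epoxidase (Sqle), which acts next on squalene, averaged 243 ± 8.77 in High, 232 ± 8.55 in Medium and 232 ± 6.56 in Low. Neither passed between High and Low (limma adjusted p = 0.362 and 0.504). Msmo1 and Nsdhl take part, together with Hsd17b7, in removing methyl groups from sterols after the step of Cyp51. Msmo1 averaged 132 ± 1.58 in High, 125 ± 7.28 in Medium and 134 ± 13.3 in Low, and Nsdhl 52.0 ± 1.45 in High, 46.7 ± 2.96 in Medium and 51.8 ± 7.37 in Low. Hsd17b7 averaged 20.7 ± 1.29 in High, 20.8 ± 2.31 in Medium and 22.6 ± 3.05 in Low. The log2 fold changes of these 3 genes for High over Low lay between -0.11 and 0.01. Ebp, Sc5d and Dhcr7 carry out late changes to the double bonds of the ring. Ebp averaged 21.4 ± 1.41 in High, 18.9 ± 0.54 in Medium and 21.1 ± 4.07 in Low, and Sc5d 26.7 ± 1.46 in High, 27.3 ± 2.09 in Medium and 30.8 ± 3.35 in Low. Dhcr7 averaged 70.4 ± 2.64 in High, 73.2 ± 6.53 in Medium and 75.4 ± 2.78 in Low. None of these 3 genes passed, with limma adjusted p of 0.892, 0.195 and 0.427. The strand setting of the counting is not given in the sources used here, and several members share exon bases with genes on the opposite strand. The largest shares were those of Fdft1 (18.3%), Scap (13.2%), Hmgcs1 (12.1%), Lbr (9.24%) and Idi1 (9.2%).

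No SREBP regulator or sterol carrier passed between High and Low in limma, and Srebf2 alone of the 6 had an unadjusted p under 0.05. Srebf2, the SREBP gene known chiefly for the sterol route, had 341, 331 and 323 in High, 329, 301 and 319.5 in Medium and 329, 217 and 262 in Low. Low replicate 1 lay with the High and Medium libraries and the other Low libraries below them. The log2 fold change of 0.32 did not pass (limma adjusted p = 0.0927), but did so with the length correction (0.0189) and when Low replicate 1 was left out (0.00218). Srebf1, known chiefly for the fatty acid route, had 59.7, 69.2 and 67.2 in High, 65.2, 71.7 and 74.3 in Medium and 80.1, 65.7 and 77.9 in Low, with overlapping populations and a log2 fold change of -0.18 (limma adjusted p = 0.199). The mean of Srebf1 was thus lower in High than in Low, whereas those of all 6 fatty acid synthesis genes were higher. The Srebf1 difference did not pass, and a relation between Srebf1 and these genes was not tested.

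Scap, which escorts the SREBPs to the Golgi, averaged 63.4 ± 5.23 in High, 68.4 ± 3.62 in Medium and 59.6 ± 8.04 in Low. Insig1, itself a known SREBP target and the member printed above for its E-box, averaged 135 ± 7.53 in High, 133 ± 4.87 in Medium and 129 ± 7.82 in Low. Neither passed between High and Low (limma adjusted p = 0.561 and 0.58). Its relative Insig2 had 13.5, 10.1 and 11.4 in High, 16.7, 10.9 and 12.4 in Medium and 14.1, 15.5 and 15.2 in Low. The High libraries of Insig2 lay below the Low ones and the Medium libraries spanned both, with a log2 fold change of -0.33 (95% interval -0.68 to 0.02, limma adjusted p = 0.143). The sterol carrier Stard4 averaged 28.8 ± 4.56 in High, 30.3 ± 3.57 in Medium and 34.1 ± 6.77 in Low and did not pass (limma adjusted p = 0.312).

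**Figure D5:**
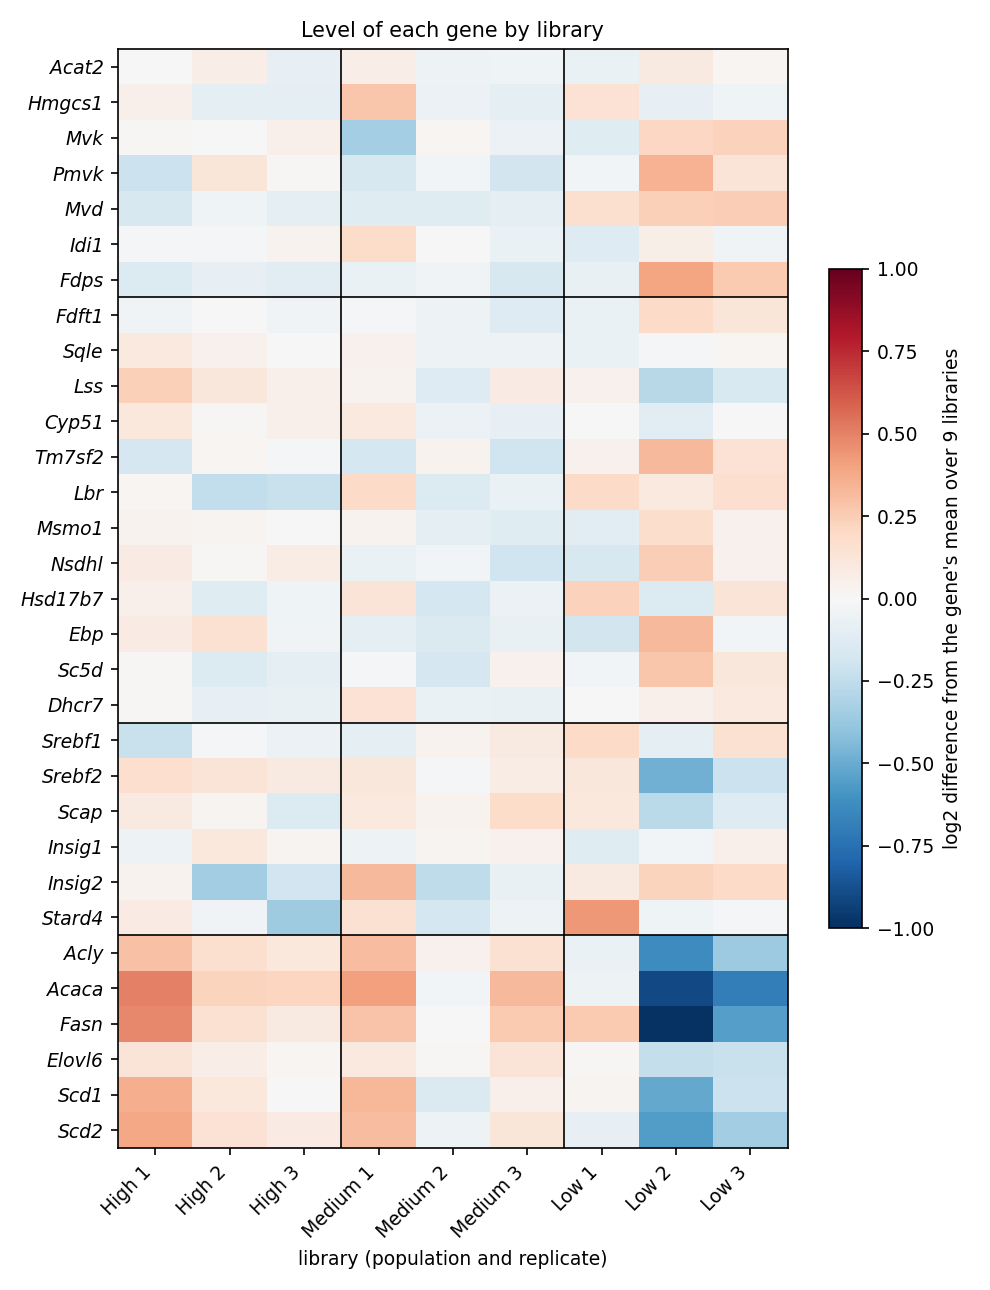
Log2 difference of each gene (rows, grouped by role) from its own mean over the 9 libraries (columns); red is above and blue below the mean. The fatty acid synthesis rows at the bottom are red in the High libraries, other than Scd1 in High replicate 3 (-0.0053), and blue in Low replicates 2 and 3, where their median is -0.60 and -0.36, and the rows above show paler colours in most libraries.

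Counted by range, 6 members had all High libraries above all Low ones (Acly, Acaca, Elovl6, Scd2, Lss and Cyp51) and 5 had them all below (Mvd, Fdps, Tm7sf2, Lbr and Insig2). Over all genes 41.6% had populations that did not overlap between High and Low, 20.2% as higher and 21.4% as lower, so the counts over the 31 members were close to that background. By their means, 10 members followed the order High, Medium, Low, 5 of them among the 6 fatty acid synthesis genes, and 8 the reverse order, none of them a fatty acid synthesis gene. The share of all genes in each order was not counted, so these numbers stand without a background. High over Medium folds of the 6 fatty acid synthesis genes were only 0.994 to 1.05.

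Between High and Medium no member passed in limma, where 0.407% of all genes did. At an unadjusted p under 0.05 there were also no members, against 1468 of the 13499 genes, the smallest adjusted p of a member was 0.719, and edgeR and DESeq2 on the recovered reads called none either, where they called 0.467% and 1.93% of all genes. The median log2 fold change of the 6 fatty acid synthesis genes was 0.07, with values of 0.08 for Acaca (95% interval -0.38 to 0.54), 0.02 for Acly (-0.29 to 0.33) and 0.06 for Fasn (-0.53 to 0.64). These intervals do not show that the populations are alike. Over the 31 members the largest difference was 0.17, and Nsdhl and Ebp were the 2 members whose High libraries all lay above their Medium libraries, beside 20.1% of all genes whose ranges did not overlap.

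Between Medium and Low, Acly and Acaca were higher in Medium and Mvd was lower, and the other 28 members did not pass (limma), beside 12% of all genes that did, 6.14% as higher and 5.87% as lower. High against Low and Medium against Low share the Low libraries, so they are not independent of each other. Acaca had a log2 fold change of 0.78 for Medium over Low (SE 0.20, limma adjusted p = 0.0369), Acly one of 0.52 (SE 0.14, adjusted p = 0.0393) and Mvd one of -0.33 (SE 0.07, adjusted p = 0.0174). Scd2 (0.46, adjusted p = 0.063), Fasn (0.61, 0.148), Elovl6 (0.23, 0.106) and Scd1 (0.31, 0.226) did not pass. The median over the 6 fatty acid synthesis genes was 0.49, against -0.01 over all genes. After the length correction it was 0.28, and 3 of the 6 genes passed as higher, beside 20.3% of all genes in either direction and 11.1% as higher. These were Acly (0.45, adjusted p = 0.00857), Acaca (0.44, 0.00296) and Scd2 (0.32, 0.0163). The corrected values of Fasn (0.24, 0.179), Scd1 (0.22, 0.203) and Elovl6 (0.06, 0.487) did not pass. The calls depended on single libraries. That for Acly was lost without any 1 of the High or Medium libraries, Low replicate 2 or Low replicate 3 (adjusted p = 0.0531 to 0.131), and that for Acaca without High replicate 2 or 3, Medium replicate 1 or 3, or Low replicate 2 or 3 (0.0592 to 0.136). That for Mvd was lost without any 1 of the Medium libraries or Low replicate 3 (0.0531 to 0.0842) and after the length correction (log2 fold change -0.20, adjusted p = 0.0713). Without Low replicate 1, 14 members passed between Medium and Low, 8 as higher and 6 as lower.

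Other genes of sterol and fatty acid metabolism were read from 6 lists, with up to 3 genes of each named by the size of their change between High and Low. Their counts stand beside the 28.4% of all genes that passed between High and Low, 13.8% as higher and 14.6% as lower. Of 13 genes for SREBP cleavage and Insig turnover, 1 was higher in High, 2 were lower and the median log2 fold change was -0.02, a share near that background. Mbtps2, the site-2 protease that releases SREBPs, was lower in High (log2 fold change -0.40, limma adjusted p = 0.0342), a call that held in 19 of 25 alternatives and was lost without High replicate 2 or 3, Medium replicate 3, or Low replicate 1 or 3 (0.0543 to 0.114), and it shares 28.4% of its exon bases with Yy2. Sec24c, a subunit of the COPII coat, was higher (0.44, 0.0478), a call that held in 11 of 25 and was lost without any 1 library other than Low replicate 1 (0.057 to 0.155), with a log2 fold change of 0.28 without Low replicate 2.

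Of 18 measured genes for sterol uptake, efflux and esterification, 2 were higher in High and 5 lower, with a median log2 fold change of -0.17. Soat1, which esterifies cholesterol for storage, had 41.6, 33.7 and 39.7 in High, 52.1, 44.6 and 52.6 in Medium and 64.3, 64.0 and 61.4 in Low (-0.71, limma adjusted p = 0.000857), with every High library below every Low one. Mylip, a ubiquitin ligase of lipoprotein receptors, was also lower (-0.66, 0.00854), at 2.94 ± 0.171 in High, 3.12 ± 0.583 in Medium and 5.29 ± 0.745 in Low. The cholesterol exporter Abca1 was higher (0.88, 0.0482), a call that held in 12 of 25 alternatives and was lost without any 1 library other than Low replicate 1 (0.0504 to 0.164), and its log2 fold change was 0.57 after the length correction. Of 12 genes in other isoprenoid branches, 1 was higher and 2 were lower, a share near the background. Coq2, which attaches the isoprenoid tail of ubiquinone, averaged 20.0 ± 2.60 in High, 24.1 ± 2.09 in Medium and 39.8 ± 6.14 in Low (-0.96, 0.000852). The 2 subunits of protein farnesyltransferase differed in direction: Fntb was higher in High (0.44, 0.00434) and Fnta lower (-0.33, 0.0199; lost without High replicate 1 or 3, or Low replicate 2 or 3, at 0.0547 to 0.0773).

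Of 17 measured genes for fatty acid precursors, elongation and desaturation beyond the 6 members, none was higher in High and 1 was lower in limma, with a median log2 fold change of -0.07. That gene was Fads3, of the fatty acid desaturase family, at a low level of 1.49 ± 0.538 in High, 1.95 ± 0.417 in Medium and 3.23 ± 0.738 in Low (-0.76, 0.0164; lost without High replicate 2 or 3, at 0.0648 and 0.0617). Of 21 genes for fatty acid activation and glycerolipid synthesis, 2 were higher and 5 lower (median -0.06), close to the background. Cds2, which makes CDP-diacylglycerol, was higher, at 198 ± 6.20 in High, 187 ± 16.2 in Medium and 130.0 ± 18.2 in Low (0.61, limma adjusted p = 0.00274), and its log2 fold change was 0.39 after the length correction. The acyl-CoA synthetase Acsl5 (-0.62, 0.000523) and the acyltransferase Agpat4 (-0.63, 0.000855) were lower. Acsl5 averaged 32.3 ± 2.49 in High, 36.6 ± 0.926 in Medium and 50.1 ± 0.244 in Low.

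Of 18 measured genes of fatty acid oxidation, 3 were higher in High and 9 lower, a median log2 fold change of -0.29, beside the 28.4% of all genes that passed. Cpt1c, a brain-enriched member of the carnitine palmitoyltransferase family, had 18.9, 18.9 and 19.9 in High, 21.5, 25.5 and 26.0 in Medium and 38.8, 35.9 and 37.1 in Low (-0.92, limma adjusted p = 0.00013). Cpt2, which regenerates acyl-CoA inside mitochondria, averaged 16.8 ± 2.11 in High, 18.9 ± 1.37 in Medium and 25.9 ± 2.17 in Low (-0.60, 0.00415). Cpt1b was also lower (-0.70, 0.008), but it shares 81.4% of its exon bases with the annotated gene Gm44502 and its value is uncertain. The 3 higher genes, named after their values were seen, were Cpt1a (0.41, 0.0323), Acads (0.39, 0.0165) and Hadha (0.27, 0.0455). With the replicate block, which called 38.8% of all genes, 2 genes for SREBP cleavage were higher and 4 lower, 3 and 2 of the isoprenoid branches, 1 and 4 of fatty acid precursors, and 5 and 8 of glycerolipid synthesis. With the length correction, which called 38.2%, the counts were 1 and 4 for SREBP cleavage, 2 and 5 for fatty acid precursors, and 4 and 7 for glycerolipid synthesis. With a pseudocount of 4 CPM, which lowers the fold changes of low genes, those of Mylip (-0.40), Fads3 (-0.38) and Cpt1b (-0.46) were smaller by more than 1.5 times and still passed. Whether the lists differ from the 6 fatty acid synthesis genes was not tested.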

How the data were processed

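The authors deposited 1 table of 13499 genes, holding for every library a signal (read counts rescaled to nearly CPM). Per the submitters' processing notes, the tools were cutadapt, Picard, RSEM 1.17 and limma; their roles and order are not stated. Per the labels' protocols, reads were single-end and 61 nt long. No source used here names the genome build, the annotation or the strand setting. All values (100%) were whole multiples of what 1 read was worth in their library, to within 0.001 read. The 85 genes that carry no name were kept in the tests.

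Groups came from the labels. The test was limma 3.58.1 (R 4.3.3), using eBayes with a trend of the variance, on log2(signal + 1 CPM), where CPM refers to each library's own total. All 9 libraries entered the fit and population was its sole term. Benjamini-Hochberg adjustment ran over all 13499 genes, with a threshold of 0.05. A filter of 1 CPM in 3 libraries kept all genes and all 31 members. Fold changes on this scale understate those of low genes, and a plain fold is the ratio of 2 mean signals. Nothing states that the replicas come from separate cultures, so p-values measure the spread between these samples. The 95% intervals come from the same fit.

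The members and the gene lists were chosen with earlier results of these data known. Every member is given, and of each other list up to 3 genes past the threshold with the largest change between High and Low. A gene that this rule chose is counted in its list but not reported here by name. Transcript lengths and coordinates are from GENCODE M21 on GRCm38, matched for 99.4% of identifiers. The length correction subtracts a lowess trend (span 0.3) of each library's log2 deviation on the longest transcript. Listed genes not among the table's names were left out of the list counts.

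Replicate numbers are shared across populations. Around the mean of each population, libraries of the same number correlated at 0.53, 0.26 and 0.18 for High and Low, all above 0.1, so the blocked values are given beside that comparison. High 3 with Low 2 (0.31) and High 2 with Low 3 (0.12) also exceeded 0.1, and neither High and Medium nor Medium and Low met the rule. The fit was tested on simulated data (13332 genes, comparison of High against Low). It found 55.22% of genes simulated with a 1.5-fold change, 86.57% at 2-fold and 100% at 4-fold, and 14 of its 175 calls were genes simulated without a change. The simulated counts were drawn independently, without a transcript length trend or a replicate effect shared between genes. These rates therefore need not hold for the libraries described here. The alternatives varied the pseudocount, the filter, the scaling, the variance model and the sample weights, added a replicate block or the length correction, left out libraries, or applied edgeR 4.0.16 or DESeq2 1.42.0 to the recovered reads. edgeR called 3665 genes for High against Low, 63 for High against Medium and 1490 for Medium against Low.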

Additional observations from a re-analysis of the deposited data

How the results depend on the processing

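In 25 alternatives no called member reversed. Between High and Low, where 4 members passed (3 higher, 1 lower), 11 passed with the replicate block (8 higher, 3 lower), 9 with the transcript length correction (6 and 3), 11 with both (6 and 5) and 19 with sample weights (8 and 11), whose estimation stopped before convergence. Lower members also numbered 3 with quantile normalization, 3 with equal totals, 2 with DESeq2 and 2 with the length correction without Low replicate 2, an alternative added after seeing the data. Leaving out 1 library at a time gave 1 to 10 members, 0 to 8 higher and 1 to 2 lower; the lowest totals came without Low replicate 3 and the highest without Low replicate 1. Over all genes the 3832 calls became 6018 with block and length correction, 2495 with a filter of 10 CPM (fewer genes tested), 9129 with sample weights, and 2345 to 5846 without 1 library. Between High and Medium no alternative called a member; over all genes the 55 calls became 203 with the block, 308 with the length correction, 504 with both, 84 without the variance trend, 1080 with sample weights, 260 with DESeq2, 170 with the 6 libraries compared alone, 363 with the length correction without Low replicate 2, and 11 to 206 without 1 library. Between Medium and Low, where 3 members passed (2 higher, 1 lower), 9 passed with the block (6 and 3), 8 with block and length correction (4 and 4), 21 with sample weights (9 and 12), 1 with equal totals (0 higher) and 0 with the 6 libraries alone (0 and 0). Higher members numbered 1 with quantile normalization and 1 without the variance trend, and lower ones 2 with quantile normalization and 0 with the length correction. Without 1 library the total was 0 to 14, with 0 to 8 higher and 0 to 6 lower. Over all genes the 1621 calls became 3656 with the block, 2737 with the length correction, 3832 with both, 8784 with sample weights, 656 with the 6 libraries alone and 527 to 5123 without 1 library. For Medium the numbers did not meet the pairing rule, so these blocked counts are no evidence of pairing; beyond the changes given, the block ended no call. The cause of these shifts was not tested. For High against Low, 1172 log2 fold changes of single genes were recomputed. Of these, 1055 kept their side of the threshold, those that did not pass staying within the main fit's SE, whatever their sign. A further 47 no longer passed and 48 came to pass. The other 22 passed in neither fit and moved by more than that SE. For Medium against Low these numbers were 668, 26, 44 and 37 of 775. For High against Medium 773 of 775 held and 2 moved. Depth limits the low genes: Insig2, Tm7sf2 and Ebp have the lowest levels.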

Other observations

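In 3 pairs of related members, 1 was higher than the other in every library. Per kb of longest transcript, the level of Srebf2 over that of Srebf1 was 4.32 ± 0.451 in High, 3.82 ± 0.389 in Medium and 3.04 ± 0.379 in Low (SD, n = 3 each), with a range of 2.80 to 4.84 over the 9 libraries. Scd2 over Scd1 was 3.99 ± 0.0901 in High, 3.99 ± 0.183 in Medium and 3.61 ± 0.124 in Low. Insig1 over Insig2 was 11.8 ± 2.30 in High, 10.3 ± 2.46 in Medium and 8.65 ± 0.324 in Low. These ratios were not tested between populations.

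The 31 genes held 0.506% ± 0.0293 of the signal in High, 0.507% ± 0.0299 in Medium and 0.459% ± 0.0566 in Low. The 6 fatty acid synthesis genes varied more between replicates of Low than of the other populations: their median coefficient of variation was 11.6% in High, 11.3% in Medium and 19.3% in Low.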
